A study of Mus musculus with 18 samples.

Results

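The AP-1 transcription factor subunits Fos, Fosb, Fosl1, Fosl2, Jun, Junb, Jund and Batf3 were followed through 18 mouse breast tumours. These 8 genes were taken by name from a read count table of 54532 genes. Messenger RNA was sequenced from mouse-grown tumours of PB2, a breast cancer line of mouse origin. The genotype was EV in 10 tumours and p95HER2, a shortened HER2 receptor tyrosine kinase, in 8. The mice of both groups were on the doxycycline diet DOX625, and all tumours descend from the same line. The labels give no promoter for the p95HER2 construct, and no strain, age or sex of the mice. They do not say that each tumour came from its own mouse, so p-values reflect only how these samples scattered. Tumours are named by genotype and a number given in accession order, as in EV 1 or p95HER2 8.

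AP-1 is a dimer of proteins that share a basic region, which touches DNA, and a leucine zipper, which holds the partners together. Jun proteins can pair with one another or with Fos proteins, whereas Fos proteins need a Jun partner. The dimers bind the motif TGANTCA, where N is any base, and the related motif TGACGTCA. Fos, Fosb, Jun and Junb are immediate-early genes, which are induced within minutes by growth factors and stress. Fosl1, which encodes FRA-1, responds to sustained signalling through the ERK kinases and is known for its part in the invasion of breast cancer cells. Batf3 encodes a small relative that pairs with Jun proteins and is best known from conventional type 1 dendritic cells.

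EV libraries totalled 35030920 to 38464541 counts and p95HER2 libraries 32686558 to 34804640, and these ranges do not overlap. The numbers in the tumour tags also separate the groups, so handling that followed the tags or the totals cannot be told apart from genotype. Reads counted under Erbb2, the mouse gene for HER2, stood at 67.9 ± 4.64 CPM (SD, n = 10) in EV and 158 ± 37.7 (SD, n = 8) in p95HER2 tumours; CPM is the usual scaling of a count to the library total, here after TMM adjustment. The epithelial markers of the labelled cell type were present in both groups. Epcam, 1 of 10 luminal epithelial markers listed, was at 638 ± 43.9 CPM in EV and 659 ± 23.9 in p95HER2 tumours. Epcam does not stand for the whole list, of which 1 marker was lower and 0 higher in p95HER2 tumours (edgeR, adjusted p under 0.05). Among all genes tested 4.45% were lower and 5.73% higher. EV 1 stood apart in its levels of skin and muscle markers. The mean log2(CPM + 0.5) of the keratinocyte markers was 3.30 in EV 1 and at most 0.72 in the other EV tumours. That of the skeletal muscle markers was 3.15 in EV 1, the lowest of all 18.

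Fosl1 and Batf3 were higher in p95HER2 tumours, and the other 6 subunits did not pass the test. Fosl1 rose 3.61-fold and Batf3 1.37-fold. Log2 fold changes are p95HER2 minus EV, and a gene is called at an adjusted p under 0.05 in edgeR's quasi-likelihood test over 17123 genes. All 8 subunits passed the filter on low counts. The test called 2 of the 8, both higher, beside 10.2% of all genes tested (5.73% higher and 4.45% lower). No subunit was called lower, also at an unadjusted p under 0.05 and with DESeq2 or limma voom, which both called 2 higher and 0 lower. The 2 groups overlapped for all 8 genes, beside 0.677% of genes in which every p95HER2 tumour lay above every EV tumour and 0.111% with the reverse order. Without EV 1 the groups came apart for 1 subunit, Fosl1, beside 0.987% of genes, and the test then called 7.04% of genes higher and 6.62% lower.

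**Figure D1:**
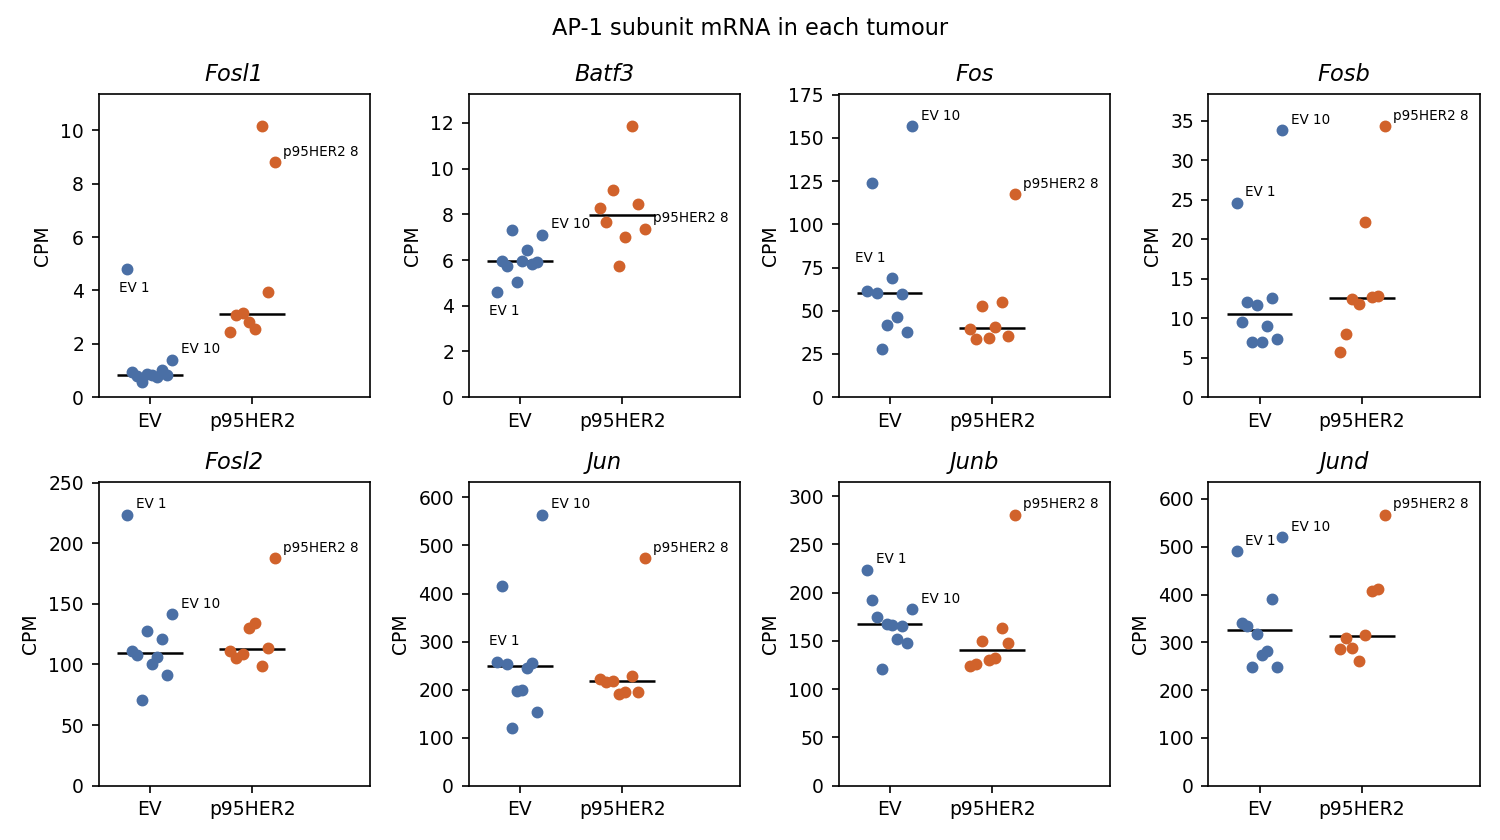
CPM (y axis, from 0) of each subunit in each tumour, EV in blue and p95HER2 in orange; the black bar is the group median, and EV 1, EV 10 and p95HER2 8 are labelled. Fosl1 lies above 2.4 CPM in every p95HER2 tumour and below 1.5 in every EV tumour but EV 1. For Fosb the highest EV and p95HER2 tumours are close, at 33.9 and 34.3 CPM. For Fos (157 and 117 CPM) and Jun (564 and 474) the highest EV tumour lies above the highest p95HER2 tumour.

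Fosl1 (ENSMUSG00000024912, chromosome 19, 5447547 to 5455946, plus strand, mm10) was scarce in EV tumours. EV tumours ran from 0.584 to 4.79 CPM with a median of 0.838, and p95HER2 tumours ran from 2.44 to 10.2 CPM with a median of 3.10. The EV median was exceeded by all 8 p95HER2 tumours, and p95HER2 6 (10.2) and p95HER2 8 (8.80) lay above the highest EV tumour. The EV maximum came from EV 1, and the next EV tumour, EV 10, was at 1.41 CPM. The means were 1.276 ± 1.254 CPM (SD, n = 10) and 4.61 ± 3.06 (SD, n = 8), a log2 fold change of 1.85 (SE 0.42, adjusted p = 0.0101, edgeR). Raw counts per tumour ranged from 22 to 339.

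Without EV 1 the log2 fold change of Fosl1 was 2.38 (SE 0.30, adjusted p = 0.000112, edgeR), or 5.19-fold. With the keratinocyte marker level of each tumour as a covariate, a setting chosen after the data were seen, Fosl1 was 5.94-fold higher. With the leukocyte marker level as a covariate the log2 fold change was 1.75 and the call was lost (adjusted p = 0.0667, edgeR). Of 13 leukocyte markers tested, 5 were lower and 0 higher in p95HER2 tumours (edgeR; 12 lower and 0 higher at an unadjusted p under 0.05, 7 and 0 with DESeq2, 6 and 0 with limma voom), and their mean level ran from 2.75 to 3.95 in EV and from 1.95 to 3.16 in p95HER2 tumours on the log2(CPM + 0.5) scale; no marker of the list was at 0 in all tumours. Among the other marker lists edgeR called 0 genes higher, and lower 1 of 10 luminal epithelial, 1 of 10 fibroblast, 0 of 7 endothelial, 0 of 10 skeletal muscle, 6 of 7 adipocyte and 2 of 3 keratinocyte markers. Beside these counts and that of the leukocyte markers, edgeR called 5.73% of all genes tested higher and 4.45% lower. Beyond these fits the part of other cells in the Fosl1 difference was not tested. In bulk tumours a change in the number of cells of a type and a change in the RNA per cell cannot be told apart.

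Batf3 (ENSMUSG00000026630, chromosome 1, 191097847 to 191108945, plus strand, mm10) changed by a smaller factor than Fosl1, with a smaller SE. EV tumours ran from 4.6 to 7.297 CPM with a median of 5.95, and p95HER2 tumours from 5.75 to 11.9 with a median of 7.97. Of the 8 p95HER2 tumours, 7 lay above the EV median and 6 above the EV maximum, while p95HER2 4, at 5.75, lay among the EV tumours. The log2 fold change was 0.45 (SE 0.12, adjusted p = 0.0196, edgeR), from means of 5.99 ± 0.83 CPM (SD, n = 10) and 8.18 ± 1.80 (SD, n = 8). Batf3 passed in all 31 alternatives run, at log2 fold changes of 0.35 to 0.64 and adjusted p-values of 0.0035 to 0.0466.

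Markers of conventional type 1 dendritic cells, where Batf3 has its best known role, were not called higher. Of 11 tested, edgeR called 0 higher and 1 lower, beside 5.73% and 4.45% of all genes tested. At an unadjusted p under 0.05 edgeR had 0 higher and 3 lower, and DESeq2 and limma voom each called 0 higher and 1 lower. The gene lower in edgeR was Rab7b, a small GTPase of endosomes (log2 fold change −0.65, SE 0.15, adjusted p = 0.0118, edgeR). The median of the 11 was −0.39, beside −0.01 for all genes tested. Their mean level ran from 2.57 to 3.60 in EV and from 2.16 to 3.005 in p95HER2 tumours on the log2(CPM + 0.5) scale. The defining markers Xcr1 and Clec9a, named here outside the rule for named genes, were low in both groups: Xcr1 at 0.692 ± 0.504 CPM in EV and 0.414 ± 0.261 in p95HER2 tumours, and Clec9a at 0.518 ± 0.485 and 0.416 ± 0.194.

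**Figure D2:**
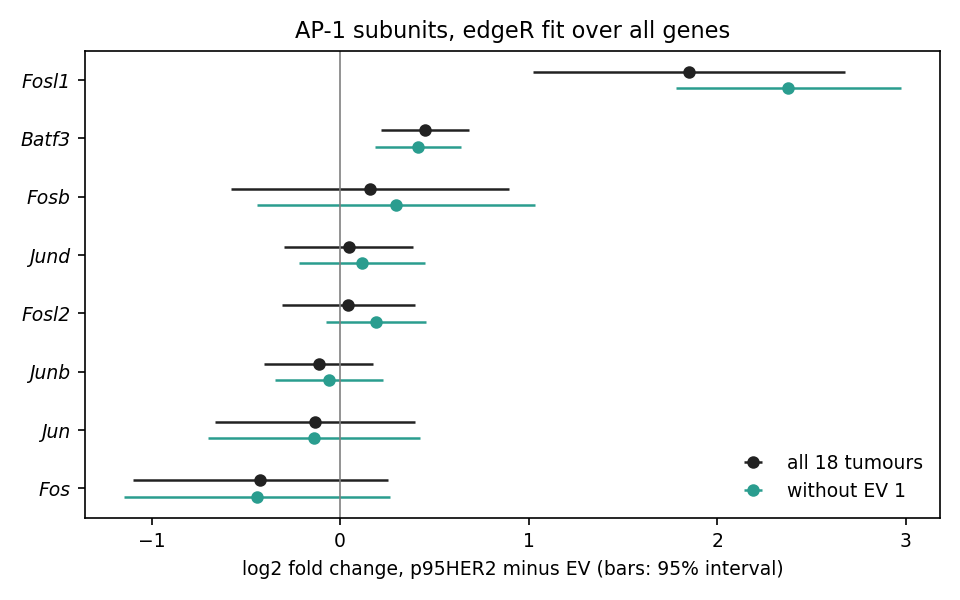
Log2 fold change of each subunit (x axis, p95HER2 minus EV, bars are 95% intervals) in the edgeR fit to all 18 tumours in black and without EV 1 in green. Fosl1 and Batf3 lie to the right of 0 in both fits, and the intervals of the other 6 genes cross 0 in both.

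Fos (ENSMUSG00000021250, chromosome 12, 85473890 to 85477273, plus strand, mm10), the founding member of its family, was the subunit with the lowest fold change. EV tumours ran from 27.8 to 157 CPM with a median of 60.1, and p95HER2 tumours from 33.8 to 117 with a median of 39.98. Of the 8 p95HER2 tumours 7 lay below the EV median, and the p95HER2 range lay within the EV range. The log2 fold change was −0.42 (SE 0.34, adjusted p = 0.474, edgeR), with a 95% interval of −1.10 to 0.25. Without p95HER2 8 it was −0.72 (adjusted p = 0.158, edgeR).

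Fosb (ENSMUSG00000003545, chromosome 7, 19302696 to 19310051, minus strand, mm10) is the immediate-early relative of Fos. It ran from 6.96 to 33.9 CPM in EV tumours (median 10.6) and from 5.75 to 34.3 in p95HER2 tumours (median 12.6). Its log2 fold change of 0.16 had an interval of −0.58 to 0.89 (adjusted p = 0.838, edgeR), which takes in changes as large as that of Batf3 in either direction.

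Fosl2 (ENSMUSG00000029135, chromosome 5, 32135801 to 32157842, plus strand, mm10), which encodes FRA-2, ran from 70.4 to 224 CPM in EV tumours (median 109) and from 98.9 to 188 in p95HER2 tumours (median 113). Its log2 fold change was 0.04, with an interval of −0.31 to 0.40 (adjusted p = 0.915, edgeR). With the luminal epithelial marker level as a covariate it was 0.26 and passed the test (adjusted p = 0.0239, edgeR). That marker level was highest in EV 1 (7.37, against at most 6.98 in the other EV tumours), where Fosl2 was highest too.

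The Jun genes supply the obligate partner of the Fos proteins, and none of the 3 passed the test. Jun (ENSMUSG00000052684, chromosome 4, 95049034 to 95052222, minus strand, mm10) ran from 120 to 564 CPM in EV tumours (median 249) and from 192 to 474 in p95HER2 tumours (median 217). Of the 8 p95HER2 tumours 7 lay below the EV median, and the log2 fold change was −0.13 with an interval of −0.66 to 0.40 (adjusted p = 0.803, edgeR). Junb (ENSMUSG00000052837, chromosome 8, 84974484 to 84978718, minus strand, mm10), which can oppose Jun at some targets, ran from 121 to 224 CPM in EV (median 167) and from 124 to 281 in p95HER2 tumours (median 140). Its log2 fold change was −0.11 with an interval of −0.40 to 0.17 (adjusted p = 0.674, edgeR), and again 7 of 8 p95HER2 tumours lay below the EV median. Without p95HER2 8, the highest of all tumours for Junb, the value was −0.28 (adjusted p = 0.0575, edgeR).

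Jund (ENSMUSG00000071076, chromosome 8, 70698949 to 70700616, plus strand, mm10), the Jun gene that is least dependent on stimulation, ran from 248 to 519 CPM in EV tumours (median 326) and from 262 to 567 in p95HER2 tumours (median 312). Its log2 fold change was 0.05 with an interval of −0.30 to 0.39 (adjusted p = 0.907, edgeR). The highest EV and p95HER2 tumours for Jund were again EV 10 and p95HER2 8.

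Overlapping genes on the opposite strand lie at 4 of the 8 loci, and the sources used here do not give the strand option of the counting. The longest overlap, 2767 bases, is that of Fosl1 with Ccdc85b. Ccdc85b was at 22.04 ± 2.36 CPM in EV and 21.8 ± 2.93 in p95HER2 tumours, with a log2 fold change of −0.02 (adjusted p = 0.928, edgeR). Junos overlaps Jun, Prdx2 overlaps Junb and Gm11175 overlaps Jund, with log2 fold changes of 0.00, 0.04 and 0.01. The 20 nearest tested genes of each subunit, 10 on either side, had median log2 fold changes between −0.08 and 0.09, and at most 1 of each 20 was called.

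Compared per kilobase of merged exons, Jund was the highest subunit and Fosl1 the lowest in both groups. The EV medians were 195 CPM per kilobase for Jund, 78.0 for Jun, 72.7 for Junb, 25.6 for Fos, 11.3 for Fosl2, 3.73 for Batf3, 1.69 for Fosb and 0.412 for Fosl1. In p95HER2 tumours the order was the same, at 187, 68.2, 60.9, 16.997, 11.6, 4.99, 2.01 and 1.53 CPM per kilobase. Jun and Junb were neighbours without a stable order in EV, where Jun was above Junb in 5 of 10 tumours, and Junb stood above Jun when the longest transcript was used as the length. Fosb and Fosl1 were likewise close in p95HER2 tumours, with Fosb higher in 5 of 8, whereas it was higher in 10 of 10 EV tumours. The other neighbours kept their order in at least 7 of 8 tumours of p95HER2 and 8 of 10 of EV.

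Within the summed mRNA of the 4 Fos family genes, Fosl1 took a median of 1.17% in EV tumours (range 0.713 to 4.25%) and 4.90% in p95HER2 tumours (3.51 to 12.3%). The upper EV value is EV 1. Fos made up a median of 61.7% in EV (47.0 to 79.7%) and 53.1% in p95HER2 tumours (46.4 to 63.0%). Fosl2 made up 32.4% (16.7 to 41.7%) and 38.0% (24.5 to 43.1%). Fos and Fosl2 together made up most of the family's mRNA in every tumour. Shares within the 3 Jun family genes were close: Jund took a median of 56.6% in EV and 59.2% in p95HER2 tumours, Jun 20.8% and 21.999%, and Junb 21.3% and 18.5%.

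**Figure D3:**
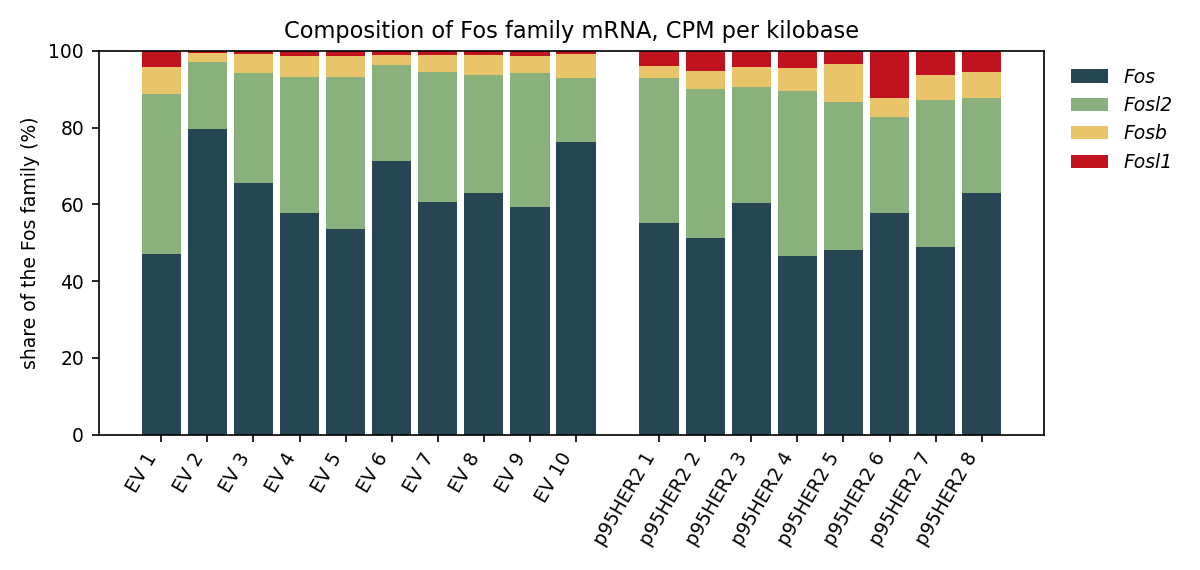
Share of each Fos family gene (y axis, percent of the summed CPM per kilobase of the 4 genes) in each tumour (x axis). The Fosl1 part, red at the top, spans 3.51 to 12.3% in p95HER2 tumours and 0.713 to 4.25% in EV tumours, where EV 1 is the highest.

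The subunits varied together among tumours of the same genotype. Log2(CPM + 0.5) was centred on the group mean and correlated over the 18 tumours, with permutation within the groups and adjustment over 28 pairs. Of these pairs 19 passed by Pearson's r, 19 by Spearman's rho and 17 by both, and 18 of the 19 Pearson correlations were positive. Fos and Jun were closest, with r = 0.94 (permutation p = 1e-05, the smallest the draws can give; adjusted 0.00028) and rho = 0.78 (permutation p = 0.00055, adjusted 0.00192). Their r was 0.95 within EV and 0.94 within p95HER2 tumours, and 0.87 without EV 10 and p95HER2 8, the 2 tumours farthest from the median.

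The Fos and Jun promoters are shown for this closest pair. They are the 250 bases before the start site, 5′ to 3′ on the gene's strand (RefSeq, GRCm38.p6; Fos chr12:85473640-85473889, Jun chr4:95052223-95052472). Capitals mark TGACATCA, an element known from the Jun promoter, which was added to the search after the sequences were seen.
Fos: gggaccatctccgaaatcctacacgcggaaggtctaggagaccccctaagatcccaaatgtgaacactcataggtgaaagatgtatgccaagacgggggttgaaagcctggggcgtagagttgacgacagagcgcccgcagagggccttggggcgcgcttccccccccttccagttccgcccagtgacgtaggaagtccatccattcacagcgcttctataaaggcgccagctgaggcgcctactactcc
Jun: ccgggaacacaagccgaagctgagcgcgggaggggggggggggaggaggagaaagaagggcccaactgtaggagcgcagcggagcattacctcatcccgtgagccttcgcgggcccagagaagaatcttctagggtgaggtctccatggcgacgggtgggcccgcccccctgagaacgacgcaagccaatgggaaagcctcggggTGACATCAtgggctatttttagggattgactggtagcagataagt
TGACATCA starts 45 bases before the Jun start site and stands in 3.62% of 32851 mouse promoters of the same length (250 bases before to 50 after the start, both strands). TGANTCA, which is in 7.81% of them, was in 0 of the 7 subunit promoters with a sequence, and the Fosl1 promoter was not among these. TGACGTCA, which is in 1.79%, and the CArG box of serum response factor, in 1.63%, had no match in the 7 either. Sequence farther upstream was not searched, so these counts say nothing about sites there.

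Fosl1 varied most closely with Jund (r = 0.78, permutation p = 0.00015, adjusted 0.00084; rho = 0.78, permutation p = 0.00015, adjusted 0.00105) and Junb (r = 0.76, permutation p = 0.00016, adjusted 0.00084; rho = 0.86, permutation p = 2e-05, adjusted 0.00056). Without EV 1 and p95HER2 6, the 2 tumours farthest from the Fosl1 median, r was 0.86 with Jund and 0.92 with Junb. Its correlation with Fos did not pass (r = 0.47, permutation p = 0.0539, adjusted 0.0719), although by rank it did (rho = 0.57, permutation p = 0.0112, adjusted 0.0225). Batf3 stood outside this pattern over the 18 tumours. Of its 7 pairs that with Fosl2 passed, and it was negative (r = −0.57, permutation p = 0.00991, adjusted 0.0173; rho = −0.57, permutation p = 0.0179, adjusted 0.0295), with r = −0.48 without EV 1 and p95HER2 8. Batf3 and Fosl1 had r = 0.06 (permutation p = 0.828, adjusted 0.892), but −0.59 within EV and 0.54 within p95HER2 tumours. EV 1 had the highest Fosl1 and the lowest Batf3 of the EV tumours. Batf3 and Junb had r = −0.64 within EV and 0.11 within p95HER2 tumours. The difference between the groups in r was not tested.

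The pattern rested in part on 3 tumours. EV 1, EV 10 and p95HER2 8 had the highest levels of the heat shock genes (8.20, 8.48 and 8.76 on the mean log2(CPM + 0.5) scale, against 6.34 to 7.89 elsewhere) and of 28 other immediate-early genes (5.99, 6.01 and 6.25). Without these 3, a choice made after the data were seen, 9 of 28 pairs passed by Pearson's r and 4 by Spearman's rho. Fos and Jun had r = 0.87, Fosl2 and Batf3 had r = −0.69, and Fosl1 and Fosl2 went from r = 0.64 to −0.13. In the comparison of the groups without these 3 tumours Fosl1 had a log2 fold change of 2.29 and Batf3 of 0.46, and both passed the test.

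**Figure D4:**
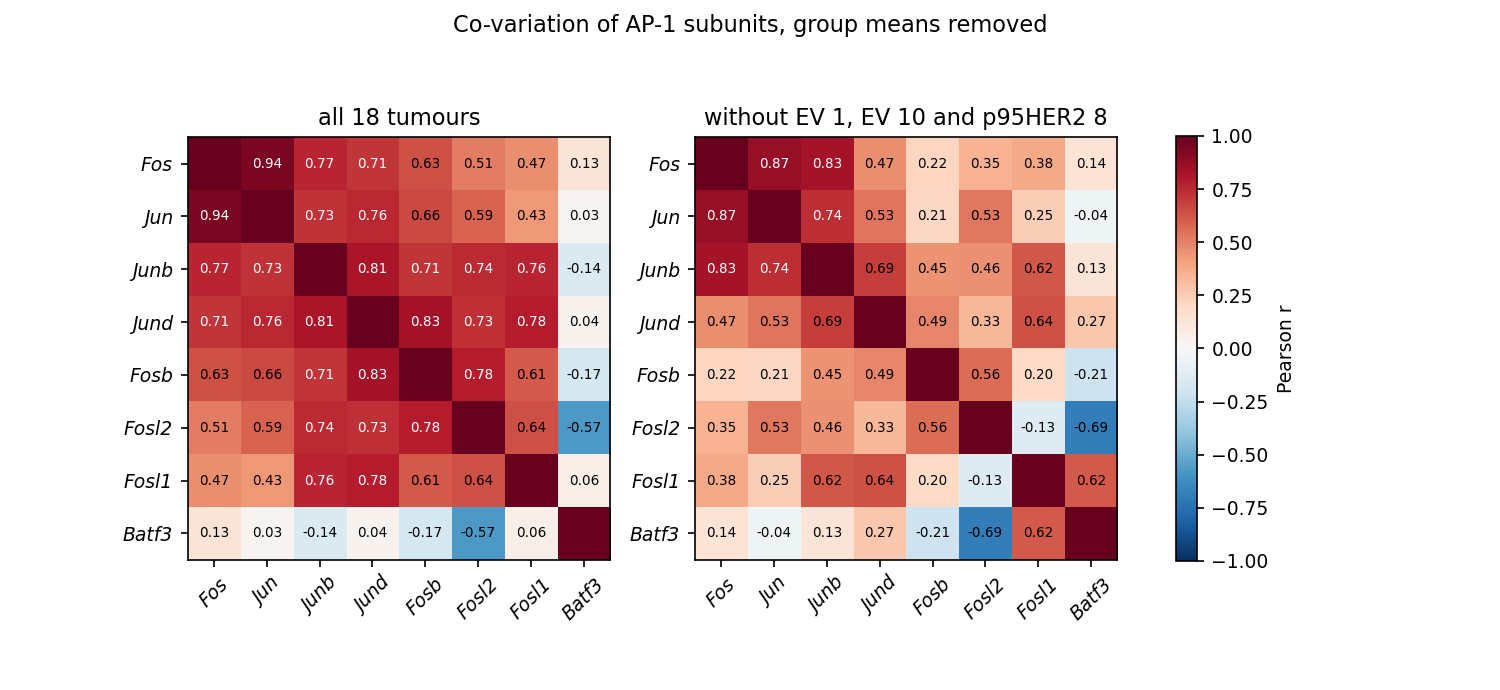
Pearson r of log2(CPM + 0.5), centred on the group mean, for each pair of subunits in all 18 tumours (left) and without EV 1, EV 10 and p95HER2 8 (right); red is positive and blue negative. Most values among Fos, Jun, Junb, Jund, Fosb and Fosl2 are lower on the right, such as Fosl2 and Jund (0.73 and 0.33), and Fos and Jun go from 0.94 to 0.87.

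Within the 8 p95HER2 tumours no subunit followed Erbb2 past adjustment over the 8 genes. Fos had r = 0.77 (exact permutation p = 0.0205, adjusted 0.085) and rho = 0.60 (exact permutation p = 0.132). Fosl1 had r = 0.73 (exact permutation p = 0.0493, adjusted 0.0986) and rho = 0.45 (exact permutation p = 0.267). Between Fos and Fosl1 stood Junb (r = 0.76, exact permutation p = 0.0243, adjusted 0.085) and Jun (r = 0.75, exact permutation p = 0.0319, adjusted 0.085). The correlations of these genes rested on p95HER2 6 and p95HER2 8, the tumours of highest Erbb2 (186 and 231 CPM). Without these tumours r was −0.03 for Fos, −0.18 for Junb, −0.10 for Jun and −0.26 for Fosl1. For Batf3 r was 0.00 (exact permutation p = 0.997).

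Among 12233 candidates, whose mean log2 CPM was 1 or more, those most like Fosl1 over the 18 tumours, group means removed, were Plaur (r = 0.93), the urokinase receptor, Lmna (0.92), which encodes lamins A and C, and Kctd11 (0.89). They were chosen for this likeness, so r is a description. Without EV 1 the r with Fosl1 was 0.87 for Plaur, 0.86 for Lmna and 0.80 for Kctd11. Their own log2 fold changes were 0.61 for Plaur (SE 0.21, adjusted p = 0.071, edgeR), −0.19 for Lmna (adjusted p = 0.232) and 0.45 for Kctd11 (adjusted p = 0.0553), none of them called. Most like Batf3 were Mbd3 (r = 0.86), a subunit of the NuRD chromatin complex, Rell2 (0.82) and Itpka (0.82), a kinase of inositol trisphosphate. Of these Rell2 was called, at a log2 fold change of 0.50 (SE 0.13, adjusted p = 0.0152, edgeR).

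Other bZIP proteins that can pair with AP-1 subunits were called in 4 of 15 cases, 1 higher and 3 lower, beside 5.73% of all genes tested higher and 4.45% lower. Their median log2 fold change was −0.02, beside −0.01 for all genes tested. Batf, a relative of Batf3 in lymphocytes and myeloid cells, fell from 1.33 ± 0.491 CPM in EV to 0.728 ± 0.201 (log2 fold change −0.87, SE 0.24, adjusted p = 0.0259, edgeR). Maf, which is expressed in macrophages and T cells, fell from 22.9 ± 5.01 to 14.1 ± 2.90 CPM (−0.70, SE 0.14, adjusted p = 0.00358). Bach2, a repressor at AP-1-like sites, rose from 21.1 ± 1.59 to 24.1 ± 2.14 CPM (0.19, SE 0.06, adjusted p = 0.0432). Of the leukocyte markers given above 5 of 13 fell as well, and their part in the falls of Batf and Maf was not tested.

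The kinases, transcription factors and ubiquitin ligases that act on AP-1 were called in mRNA for 1 of 21 genes higher and 1 lower, a share near the 10.2% of all genes tested. Elk3, an ETS factor that works with serum response factor, rose from 60.9 ± 4.61 to 75.6 ± 5.31 CPM (log2 fold change 0.31, SE 0.05, adjusted p = 0.00061, edgeR). Creb1, which binds the TGACGTCA element, was lower by a small margin (−0.16, SE 0.05, adjusted p = 0.0498). Kinase activity and protein phosphorylation are not measured by these data.

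Of 28 other immediate-early genes, edgeR called 0 in either direction, beside 5.73% of all genes tested higher and 4.45% lower. Of the 28, 17 had a negative log2 fold change. At an unadjusted p under 0.05 edgeR had 1 higher and 4 lower, DESeq2 called 0 higher and 1 lower, and limma voom 0 and 2. Their median was −0.09, beside −0.01 for all genes tested. The 2 of smallest p were Gadd45b, a stress-induced regulator of kinase signalling, at −0.28 (adjusted p = 0.0634, edgeR), and Myc at −0.18 (adjusted p = 0.0748). The 6 heat shock genes were not called by any of the 3 tools, nor at an unadjusted p under 0.05, and had a median of −0.16. With the level of the immediate-early genes as a covariate Fosl1 had a log2 fold change of 2.23 (adjusted p = 0.000282, edgeR) and Batf3 of 0.43 (adjusted p = 0.0286).

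Genes known from other systems as AP-1 targets were higher more often than lower: of 38 listed, 35 were tested, 15 were higher and 1 lower, beside 5.73% and 4.45% of all genes tested. Their median log2 fold change was 0.37, beside −0.01 for all genes. The list was made with results of these data known, so its count is not independent evidence. Il24, a cytokine, had 3 counts summed over all EV tumours and 968 over all p95HER2 tumours, a ratio of 436 after division by the library totals, with a 95% interval of 149 to 2119 that covers counting error only. Hmga2, a chromatin protein of embryonic tissue, went from 0.359 ± 0.220 CPM in EV to 24.96 ± 14.6 in p95HER2 tumours (log2 fold change 6.11, SE 0.37, adjusted p = 1.62e-08, edgeR). Mmp10, a matrix protease, went from 0.237 ± 0.281 to 3.10 ± 2.13 CPM (3.69, SE 0.49, adjusted p = 0.000185). Il1a, an alarm cytokine, went from 0.458 ± 0.231 to 3.45 ± 2.08 CPM (2.90, SE 0.34, adjusted p = 3.15e-05). For these 4 genes every p95HER2 tumour lay above every EV tumour, as in 0.677% of all genes tested. They were picked as the called genes of largest fold change in the list, so their separation is a description only. The 1 lower gene, Cdkn1a, which encodes the cell cycle inhibitor p21, fell from 366 ± 34.6 to 294 ± 43.2 CPM (−0.32, SE 0.08, adjusted p = 0.0134).

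**Figure D5:**
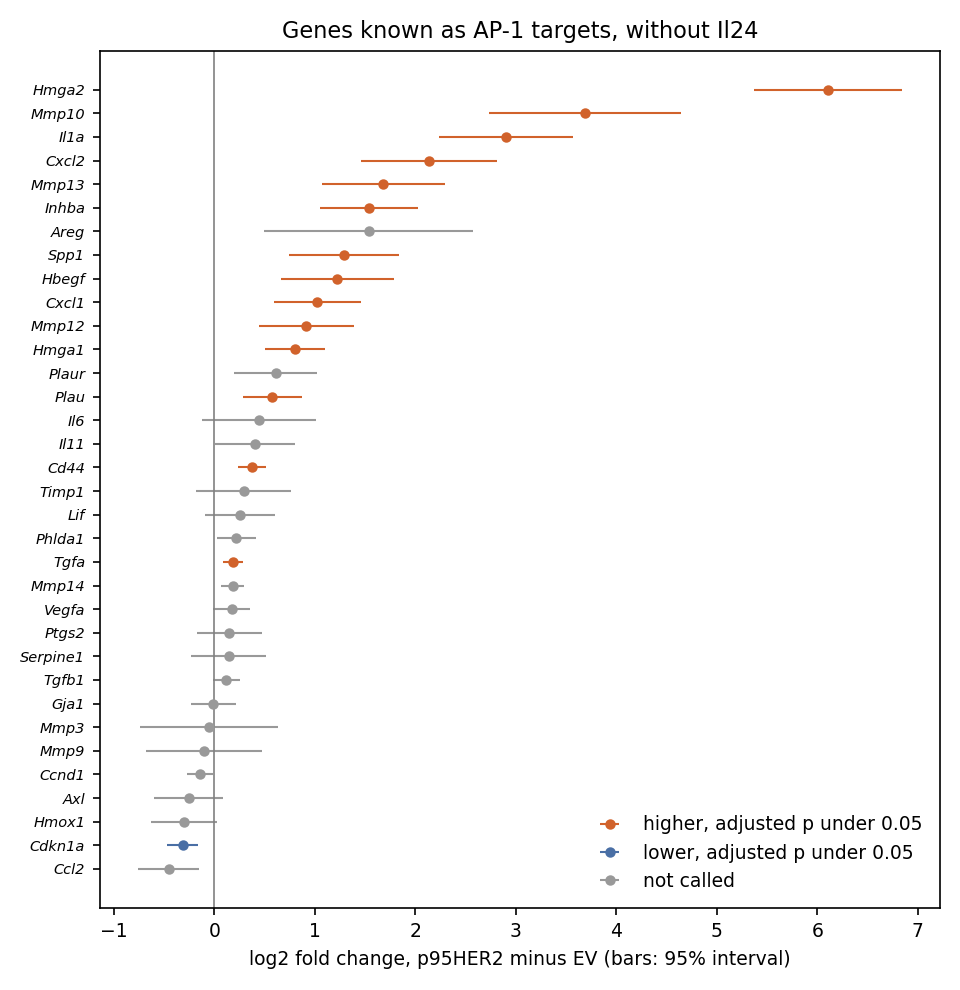
Log2 fold change (x axis, p95HER2 minus EV, bars are 95% intervals) of the 34 tested genes known as AP-1 targets other than Il24, whose EV counts are near 0; orange was called higher, blue lower and grey not called. Hmga2 lies farthest right at 6.11, followed by Mmp10 at 3.69 and Il1a at 2.90, and Cdkn1a is the lower call.

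The canonical motif stood close to the start site of several of these target genes. TGANTCA was in the promoter of 12 of the 28 targets with a sequence, and in 4 of the 13 that were called, beside 7.81% of all promoters or 8.97% of all genes. The list is of known AP-1 targets, so the excess over all genes is a property of its choice. The 4 called genes with the motif are Mmp10, Mmp12, Mmp13 and Il1a, of which Mmp12 and Mmp13 are named after their values were seen. The motif was also in the promoters of Mmp3, Plaur, Il6, Il11, Lif and Gja1, which were tested and not called. It was in those of Sprr1a and Sprr1b too, which did not pass the filter on low counts and were not tested. The motif was thus not particular to the called genes. These genes are named outside the rule for named genes, except Plaur, the gene most like Fosl1 among tumours. The promoters of Lmna and Kctd11, next most like Fosl1, are not described here. The stretches around the motif follow, from RefSeq (GRCm38.p6), 5′ to 3′ on the gene's strand, with the motif in capitals.
Mmp10 (chr9:7502254-7502310, plus): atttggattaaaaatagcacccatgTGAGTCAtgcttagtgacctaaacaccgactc
Mmp12 (chr9:7347305-7347361, plus): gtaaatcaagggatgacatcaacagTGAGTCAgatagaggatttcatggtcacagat
Mmp13 (chr9:7272454-7272510, plus): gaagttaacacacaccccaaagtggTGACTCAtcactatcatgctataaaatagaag
Il1a (chr2:129309973-129310009, minus): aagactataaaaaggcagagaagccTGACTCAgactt
Plaur (chr7:24462389-24462445, plus): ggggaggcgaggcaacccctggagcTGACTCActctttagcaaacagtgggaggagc
The motif begins 63 bases before the start site in Mmp10, 44 in Mmp12, 35 in Mmp13, 12 in Il1a and 69 in Plaur. Mmp12 went from 18.8 ± 8.55 CPM in EV to 35.5 ± 7.78 in p95HER2 tumours (log2 fold change 0.92, adjusted p = 0.023, edgeR), and Mmp13 from 5.20 ± 2.55 to 16.7 ± 7.74 CPM (1.68, adjusted p = 0.00302). A motif match describes the sequence and does not show that a factor is bound there.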

How the data were processed

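RNA-seq libraries of 18 tumours were analysed from a table of raw read counts per Ensembl gene, which the authors deposited with 1 column per tumour and no normalization. The submitters' processing notes name STAR 2.5, HTSeq 0.6.1 and mm10, and per the labels' protocols the libraries were directional. The sources used here give neither the strand option nor the annotation release. Symbols, coordinates (1-based) and exon lengths came from GENCODE M21.

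Genes were filtered with filterByExpr (minimum count 10, minimum total 15), scaled by TMM and tested with edgeR 4.0.16 (R 4.3.3), robust quasi-likelihood F-test, p95HER2 against EV, with Benjamini-Hochberg adjustment over 17123 genes. Intervals are 95% intervals from the SE and the normal distribution. Correlations used 100000 permutations within groups, or all 40320 pairings within p95HER2 (Python 3.11.15, numpy 2.4.6); all tests were two-sided. Tested on simulated data for p95HER2 against EV (16990 genes), it called 16 of 50 that were set to a 1.25-fold change, 27 of 49 by 1.5-fold, 40 of 48 by 2-fold and 49 of 49 by 4-fold, and 3 of 16794 unchanged genes.

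Alternatives were no filter, 1 CPM in 8 tumours, RLE scaling, library totals only, DESeq2 1.42.0, voom with quality weights (limma 3.58.1), thinned libraries, marker levels as covariates and each tumour left out in turn, and for other results another length, scaling or pseudocount (2 in place of 0.5). The keratinocyte covariate and the removal of EV 1, EV 10 and p95HER2 8 were added after the data were seen. The subunits and gene lists were chosen with earlier results of these data known. Named were all subunits, Erbb2, up to 4 higher and 4 lower called genes of each list (otherwise up to 2 of smallest p), and the 3 genes most like each called subunit; other names are marked as such, and 1 gene that the rule took is not reported here. The counts behind a value limit its precision, most for Fosl1 in EV tumours.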

Additional observations from a re-analysis of the deposited data

Results flagged for a closer look

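For 6 of 16 sets of values (8 subunits in 2 groups) 1 tumour lay far from the rest of its group by Dixon's test at 95% on CPM. Chance alone gives this in about 1 of 20 independent sets of normally distributed values. These sets share the same tumours and the subunits varied together, so their count cannot be set against that rate. In the p95HER2 group the tumour was p95HER2 8 each time: Fos was at 117 CPM there, Fosl2 at 188, Jun at 474 and Junb at 281. In the EV group it was EV 1, with Fosl1 at 4.79 CPM and Fosl2 at 224.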

How the results depend on the processing

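Batf3 was called in all 31 alternatives and Fosl1 in 30 of 31; with the leukocyte level as a covariate Fosl1 had a log2 fold change of 1.75 and missed the threshold. With that covariate 293 genes were called higher and 124 lower, against 981 and 762, and the sign changed for Fosb (−0.070), Fosl2 (−0.17) and Jund (−0.051). With the luminal covariate 1148 genes were lower, Fosl2 was 0.26 and called, and Jun was 0.015. Other changes of sign were Fosl2 with the muscle covariate (−0.055), Jun with the immediate-early covariate (0.12) and Batf3 against Erbb2 with library totals only (r = −0.020). Genes called lower numbered 1245 with the keratinocyte covariate and 1279 without EV 1, EV 10 and p95HER2 8; DESeq2 called 1239 higher and 1128 lower. Without those 3 tumours 9 pairs of subunits passed, and r was −0.13 for Fosl1 and Fosl2, −0.042 for Jun and Batf3 and 0.13 for Junb and Batf3. The cause of these changes was not tested.

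With each tumour left out in turn, 786 to 1201 genes were higher and 489 (without p95HER2 2) to 1130 (without EV 1) lower. Log2 fold changes ranged from −0.13 to 0.42 for Fosb, −0.066 to 0.19 for Fosl2, −0.34 to 0.059 for Jun, −0.079 to 0.13 for Jund, 1.58 to 2.38 for Fosl1 and 0.35 to 0.51 for Batf3; none of the first 4 was called. No paired analysis was possible because the replicate numbers were given in accession order and only name a tumour.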
